A study of Mus musculus with 30 samples.

Results

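The 10 serotonin receptor genes described here are Htr1a, Htr1b, Htr1f, Htr2a, Htr2c, Htr3a, Htr4, Htr5b, Htr6 and Htr7, taken by symbol from the 23303 gene entries of the expression table. The entries of 4 further receptor genes, Htr1d, Htr2b, Htr3b and Htr5a, are in the table and are given with the other genes of the serotonin system. Values are from amygdala punches of male C57BL/6J mice of 2 to 3 months, with trunk blood of the same study as background. HC mice stayed in the home cage and were handled, FC mice were killed 2 h after auditory fear conditioning (tone paired with foot-shock), and Immo+FC mice had 2 h of immobilization a week before the same conditioning and were killed at the same time after it. Each library is a pool of 2 mice of 1 group. HC is represented by 6 amygdala and 4 blood libraries, FC by 6 and 5, and Immo+FC by 4 and 5. The paper describes 6 pooled samples per condition, so the Immo+FC amygdala group and all blood groups hold fewer here. Before conditioning, mice were habituated to the chambers for 10 min on 2 days. No group had immobilization alone, or the chamber, tone or shock alone. Punches centred on the basolateral nucleus may hold other parts of the amygdala.

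Serotonin reaches the amygdala through axons of the raphe nuclei of the brainstem, and its effect on a neuron depends on which receptors that neuron makes. Receptors of the 1 class (Htr1a, Htr1b, Htr1f) couple to inhibitory G proteins and lower cyclic AMP, those of the 2 class (Htr2a, Htr2c) couple to Gq and activate phospholipase C, and Htr4, Htr6 and Htr7 couple to Gs and raise cyclic AMP. Htr3a encodes a subunit of a cation channel that serotonin opens directly. In the forebrain Htr3a marks a class of GABA interneurons, and Htr2c is also abundant in the choroid plexus, the epithelium that makes cerebrospinal fluid.

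Amygdala libraries held 23148078 to 31366290 sequences, with a uniquely mapped share of 91.33 to 92.3%, and blood libraries 9081977 to 25892322 sequences with 60.06 to 72.59%. Immo+FC amygdala library 1 had both the fewest sequences and the lowest share of the 16, and also the lowest Htr2c and Htr3a. Expression is given in FPKM, fragments scaled to transcript length and to the mapped fragments of the library, which allows levels of different genes to be compared. Snap25, a neuronal vesicle fusion gene, was at 775 to 998 FPKM in all 16 amygdala libraries, and all 12 markers listed for amygdala neurons passed the minimum of a mean of 0.5 FPKM. Markers of choroid plexus stood apart between libraries. Ttr, the most abundant of these transcripts, was at 561, 1027 and 293 FPKM in HC libraries 1 to 3 and at 2.95, 1.21 and 0.837 FPKM in HC libraries 4 to 6. It was at 1.46, 1.54, 83.2, 538, 881 and 351 FPKM in FC libraries 1 to 6 and at 941, 726, 614 and 109 FPKM in Immo+FC libraries 1 to 4. A second measure that separates libraries is the mean log2 value of the 317 genes with a transcript over 10 kb, less its mean over libraries. This long-transcript score was −0.18 and −0.13 in HC libraries 1 and 2, 0.21 to 0.26 in HC libraries 3 to 6, −0.32 to −0.09 in FC, −0.22 in Immo+FC library 1 and 0.21 to 0.24 in Immo+FC libraries 2 to 4.

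All 10 receptor genes were above 0 in all 16 amygdala libraries, and all 10 passed the minimum for testing, so none was lost to a filter. Htr2c was by far the most abundant of them, with a mean of 26.4 FPKM over the 16 libraries. That is 50.8% of the summed FPKM of the 10 genes, and it placed Htr2c above 82.3% of the 13508 genes tested. Htr1b at 5.07, Htr2a at 4.79, Htr1a at 4.06 and Htr3a at 3.85 FPKM formed a middle group. Htr7 was at 2.83, Htr6 at 1.99, Htr1f at 1.23, Htr5b at 0.924 and Htr4 at 0.845 FPKM.

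In HC the order of mean levels was Htr2c, Htr2a, Htr1b, Htr1a, Htr3a, Htr7, Htr6, Htr1f, Htr5b and Htr4. The ranges of neighbouring genes overlapped at each step except from Htr2c to Htr2a, from Htr3a to Htr7 and from Htr7 to Htr6. In FC only the steps from Htr2c to Htr1b and from Htr6 to Htr1f were without overlap, and in Immo+FC only those from Htr2c to Htr2a and from Htr1b to Htr1a. The first place of Htr2c therefore held in each group, while within the middle group neighbours overlapped, except Htr1b and Htr1a in Immo+FC.

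The genes also differed in how much they varied. Over the 16 libraries the highest value was 1.48 times the lowest for Htr1a, 1.64 times for Htr2c, 1.76 times for Htr3a, 1.83 times for Htr6 and 1.85 times for Htr7. It was 2.61 times for Htr1b, 2.77 times for Htr1f, 3.46 times for Htr2a, 3.50 times for Htr4 and 4.47 times for Htr5b. Htr2a thus varied more than Htr1a or Htr3a at a similar mean level. The sum of the 10 genes was 49.2 to 59.3 FPKM in HC, 46.2 to 53.9 in FC and 43.9 to 53.6 in Immo+FC, so that the totals of the groups overlapped.

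**Figure D1:**
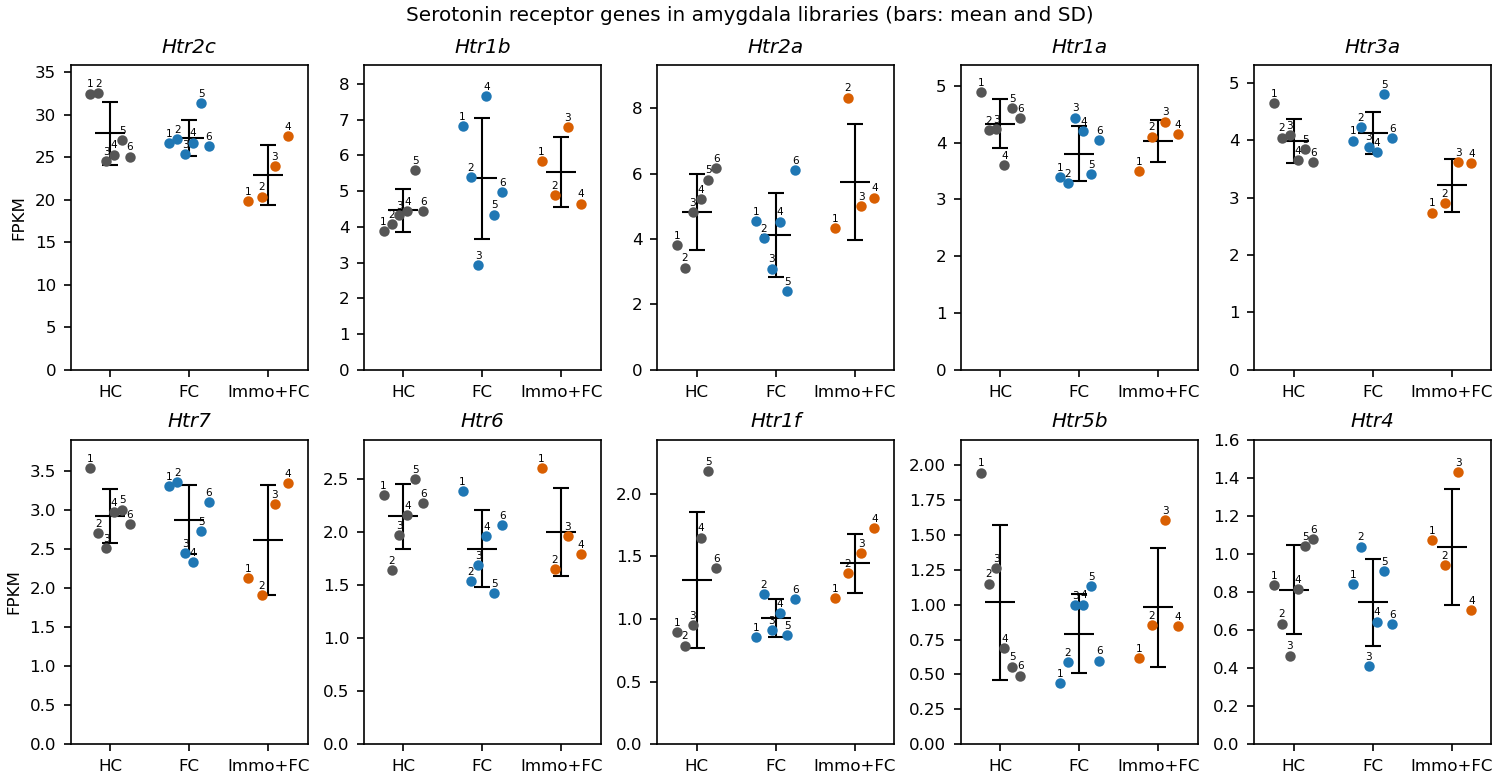
Level of each of the 10 serotonin receptor genes in FPKM (y axes, from 0) in the amygdala libraries, 6 of HC, 6 of FC and 4 of Immo+FC. Dots are libraries numbered by replicate and black bars are the mean and SD; the 4 Immo+FC dots of Htr3a lie at 2.74 to 3.61 FPKM, below all HC and FC dots, and other panels overlap between groups.

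In blood, no receptor gene reached the minimum of 0.5 FPKM on average, so no test was made there. Htr6 and Htr1f were listed at 0 in all 14 blood libraries, and the highest single values were 0.67 FPKM for Htr2c and 0.428 FPKM for Htr1b. The authors processed the tissues separately, so amygdala and blood levels are set side by side without a test. Htr2c, whose mean over all blood libraries was 0.148 FPKM, was in HC blood libraries 1 to 4 at 0.327, 0.0877, 0.67 and 0.355 FPKM, at 0.0276 to 0.135 FPKM in FC and at 0 to 0.0863 FPKM in Immo+FC. Snap25 in the same order had 11.7, 3.6, 14.5 and 16.5 FPKM, and its range was 0.142 to 4.21 FPKM in FC blood and 0.0747 to 4.37 FPKM in Immo+FC blood. Both transcripts were lowest in the same HC blood library, and the part of brain RNA in the Htr2c values was not tested.

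The serotonin transporter was abundant in blood and nearly absent from the punches. Slc6a4, which takes up serotonin and is known from platelets as well as raphe neurons, was at 87.2 ± 15.97 (SD, n = 4) FPKM in HC blood, 82.6 ± 9.70 (SD, n = 5) FPKM in FC blood and 71.4 ± 19.4 (SD, n = 5) FPKM in Immo+FC blood. In amygdala it was at 0 to 0.0604 FPKM. Tph2, the enzyme that makes serotonin in neurons, was at 0.0677 to 0.195 FPKM in amygdala, and Fev, a transcription factor of serotonin neurons, was listed at 0 in 14 of 16 amygdala libraries. Slc6a4, Tph2 and Fev were thus at or near 0 in the punches. The other markers listed for serotonin neurons were not all so low. Gata3 was at 0 to 0.0368 FPKM in amygdala. Maob had a mean of 8.74, Ddc of 2.92, Slc18a2 of 1.06, Gata2 of 0.810 and Slc22a3 of 0.554 FPKM there. Of 9 markers listed for serotonin neurons 5 were tested and 0 passed over all genes in any comparison. Only 0.0148% (FC vs HC), 0.0222% (Immo+FC vs FC) and 0.2% (Immo+FC vs HC) of all genes passed, so this does not show equal levels.

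**Figure D2:**
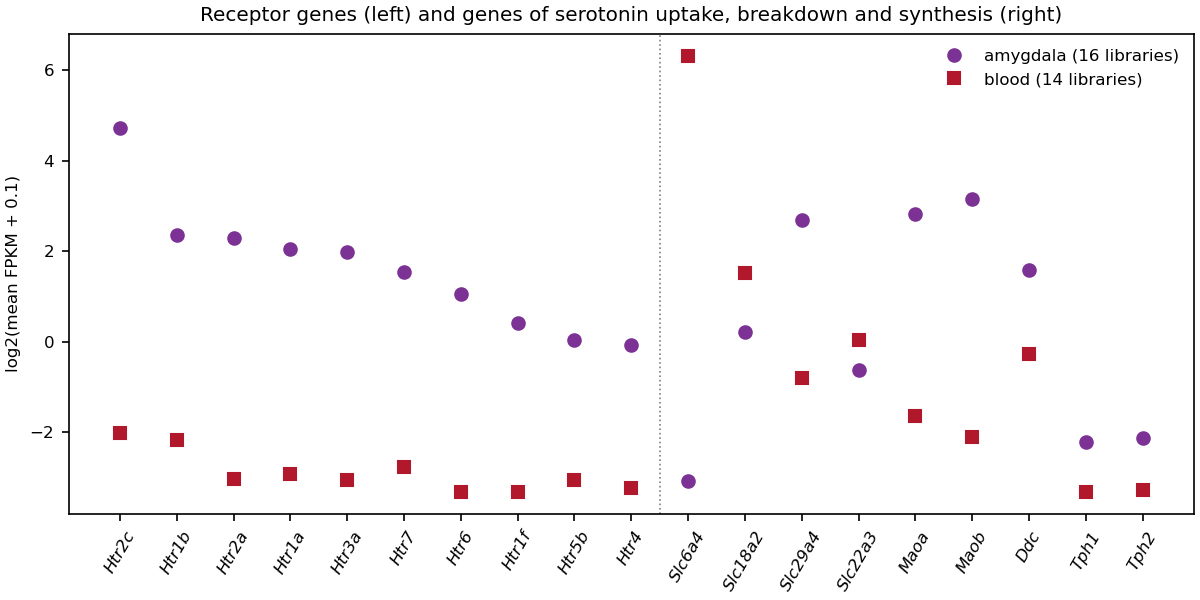
Mean level over 16 amygdala libraries (circles) and 14 blood libraries (squares) of the 10 receptor genes and of 9 genes of serotonin uptake, breakdown and synthesis, as log2(mean FPKM + 0.1) on the y axis. Receptor genes are all higher in amygdala, while Slc6a4, Slc18a2 and Slc22a3 are higher in blood; tissues were processed separately and no test is shown.

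The response to fear conditioning was examined by comparing FC with HC amygdala, a difference that takes in chamber, tone and shock together. The scale of the test was log2(FPKM + 0.1), limma fitted all 16 libraries at once, and p-values were adjusted over the 13508 genes tested. Changes of weakly expressed genes are understated on this scale. In this comparison 2 genes (0.0148% of those tested) passed an adjusted p of 0.05, and 0 of the 10 receptor genes did. At an unadjusted p under 0.05 by limma, 1 receptor gene differed and was lower in FC, against 13.1% of all genes, 6.59% higher and 6.48% lower. The ranges of FC and HC overlapped for all 10 receptor genes, while 1.39% of all genes had groups that did not overlap, 0.814% with FC lower. Of the 10 genes, 2 had a higher and 8 a lower mean log2 value in FC, with a median log2 difference of −0.15 against 0.01 over all genes. In a tissue punch, fewer cells of a type and less RNA per cell cannot be told apart.

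The gene with the smallest p in this comparison was Htr1a, a receptor that inhibits both raphe neurons and their targets. It was at 3.604 to 4.88 FPKM in HC (median 4.34) and at 3.29 to 4.44 FPKM in FC (median 3.75). In 3 FC libraries, 1, 2 and 5, its value was below the lowest HC library, and the other FC libraries lay among those of HC. The log2 difference of Htr1a was −0.19 with a 95% interval from −0.37 to −0.0018 (unadjusted p = 0.0481, adjusted p = 0.375 from limma). The unadjusted p was 0.0132 to 0.117 with a library left out.

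Among the other receptors of the 1 class, Htr1b sits on axon terminals and restrains transmitter release. Its gene overlaps a second annotated gene, D430036J16Rik, and the library kit is not stated to keep the strand of reads. It was at 3.89 to 5.58 FPKM in HC and at 2.94 to 7.66 FPKM in FC, so that FC held both the lowest and the highest of these 12 values. Its log2 difference was 0.20 with an interval from −0.17 to 0.57. Htr1f was at 0.788 to 2.18 FPKM in HC (median 1.18) and at 0.854 to 1.20 FPKM in FC (median 0.981), a log2 difference of −0.28 with an interval from −0.69 to 0.14.

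Of the receptors coupled to Gq, Htr2c was at 24.6 to 32.5 FPKM in HC (median 26.2) and at 25.4 to 31.4 FPKM in FC (median 26.7). Its log2 difference was −0.02 with an interval from −0.21 to 0.17, the value nearest to 0 among the 10 genes. Htr2a was at 3.12 to 6.16 FPKM in HC (median 5.01) and at 2.41 to 6.10 FPKM in FC (median 4.28), with a log2 difference of −0.24 and an interval from −0.69 to 0.20. Htr3a was at 3.62 to 4.65 FPKM in HC and at 3.80 to 4.81 FPKM in FC, with a log2 difference of 0.05 and an interval from −0.12 to 0.22. The receptors coupled to Gs had log2 differences of −0.11 (Htr4), −0.22 (Htr6) and −0.03 (Htr7), and Htr5b had −0.25, all with intervals that include 0. The interval of Htr2c reaches from −0.21 to 0.17 and that of Htr5b from −0.89 to 0.40, so equal levels are not shown. With a library left out, the difference of Htr1f was −0.40 to −0.12 (−0.12 without HC library 5), that of Htr2a −0.37 to −0.11 (−0.11 without FC library 5) and that of Htr5b −0.40 to −0.043 (−0.043 without HC library 1).

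The effect of prior immobilization was examined by comparing Immo+FC with FC amygdala. This comparison shares its FC libraries with the first. Here 3 genes (0.0222% of those tested) passed, and 0 of the 10 receptor genes did. At an unadjusted p under 0.05 by limma, 3 receptor genes differed, Htr3a and Htr2c toward lower and Htr1f toward higher values in Immo+FC, against 10.4% of all genes, 6.49% lower and 3.94% higher. The 10 genes had 7 higher and 3 lower mean log2 values in Immo+FC and a median log2 difference of 0.10, against −0.02 over all genes.

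Htr3a had the smallest p of the receptor genes and was the one whose groups did not overlap, although Htr2a, Htr1f and Htr4 had larger log2 differences. It lies on chromosome 9 of GRCm38 (the build also called mm10) from 48899213 to 48911099 and overlaps a second annotated gene, Gm32335. It was at 2.74, 2.91, 3.61 and 3.599 FPKM in the 4 Immo+FC libraries, at 3.80 to 4.81 FPKM in FC (median 4.02) and at 3.62 to 4.65 FPKM in HC (median 3.94). All 4 Immo+FC libraries were thus below every FC and every HC library, although libraries 3 and 4 missed the lowest HC library only narrowly. Groups failed to overlap for 2.28% of all genes between Immo+FC and FC, and for 1.38% with Immo+FC lower. The log2 difference from FC was −0.36 (standard error 0.09) with an interval from −0.55 to −0.16. Its unadjusted p of 0.00124 ranked 91 among 13508 genes and gave an adjusted p of 0.183 from limma. Without Immo+FC libraries 1 and 2, an alternative added after seeing the data, the difference was −0.19 with an unadjusted p of 0.0776.

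Markers listed for the interneuron class that carries Htr3a were read beside it. Of 9 such genes, all tested, 0 passed over all genes, and at an unadjusted p under 0.05 Reln was higher and Cnr1 and Calb2 lower in Immo+FC than in FC, against 3.94% of all genes higher and 6.49% lower. Their summed level was 87.7 to 114 FPKM in FC, 77.7 to 107 FPKM in HC and 69.9 to 93.4 FPKM in Immo+FC. The mean log2 score of the list was −0.30 and −0.19 in Immo+FC libraries 1 and 2, where Htr3a was lowest, and 0.08 and 0.14 in libraries 3 and 4. The part of the number of such cells in the Htr3a values was not tested.

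Htr2c, on chromosome X of GRCm38 from 146962513 to 147197277, spans 8 further annotated genes, among them the microRNA genes Mir448 and Mir764 and the small RNA gene Snora35. It was at 19.9, 20.4, 23.97 and 27.5 FPKM in the Immo+FC libraries and at 25.4 to 31.4 FPKM in FC. Libraries 1, 2 and 3 were below every FC library and library 4 was above 5 of them. The log2 difference was −0.26 (standard error 0.10) with an interval from −0.47 to −0.05 (unadjusted p = 0.0193, adjusted p = 0.370 from limma). Without Immo+FC libraries 1 and 2 it was −0.08 with an unadjusted p of 0.467.

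Htr2a, the Gq-coupled receptor of cortical and amygdala pyramidal cells and of some interneurons, lies on chromosome 14 of GRCm38 from 74640840 to 74709494. The paper lists this gene among those that differed between Immo+FC and FC amygdala by cuffdiff at an FDR under 0.05. In the limma test used here it did not pass. The paper describes 6 pools per condition, and 4 Immo+FC libraries were used here. Values of the same study are not independent evidence. Htr2a was at 4.33, 8.33, 5.01 and 5.27 FPKM in Immo+FC and at 2.41 to 6.10 FPKM in FC (median 4.28). Only library 2 was above every FC library, and the other Immo+FC libraries lay among those of FC. The log2 difference was 0.48 (standard error 0.24) with an interval from −0.02 to 0.98 (unadjusted p = 0.0582, adjusted p = 0.503 from limma). It was 0.29 without Immo+FC library 2.

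Htr1f is on chromosome 16 of GRCm38 from 64924729 to 65105854, and its product is an inhibitory receptor. It was at 1.17, 1.37, 1.52 and 1.73 FPKM in Immo+FC and at 0.854 to 1.20 FPKM in FC, with libraries 2 to 4 above every FC library and library 1 among them. The log2 difference was 0.48 (standard error 0.22) with an interval from 0.02 to 0.94 (unadjusted p = 0.0429, adjusted p = 0.458 from limma). In a fit that includes the long-transcript score the difference was 0.06, and that of Htr2a was 0.10. The score was −0.32 to −0.09 in FC, −0.22 in Immo+FC library 1 and 0.21 to 0.24 in Immo+FC libraries 2 to 4. Score and group are thus largely confounded, and that fit cannot cleanly separate them.

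The other members had intervals that include 0 between Immo+FC and FC. The receptors coupled to Gs had log2 differences of 0.44 for Htr4 (interval −0.08 to 0.95), 0.11 for Htr6 (−0.20 to 0.43) and −0.16 for Htr7 (−0.47 to 0.15). Htr7 was at 2.13, 1.91, 3.07 and 3.34 FPKM in Immo+FC, with libraries 1 and 2 below every FC library as they were for Htr2c and Htr3a. Htr1a had a log2 difference of 0.09 (−0.12 to 0.29), Htr1b of 0.10 (−0.32 to 0.51) and Htr5b of 0.27 (−0.45 to 0.98). With a library left out, Htr5b was at 0.02 to 0.44 (0.02 without Immo+FC library 3) and Htr7 at −0.29 to −0.03 (−0.03 without Immo+FC library 2). The gene of Htr5b overlaps another annotated gene, Gm8217, and strand is not stated, as for Htr1b.

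The combined difference of both procedures was examined by comparing Immo+FC with HC, which shares libraries with both other comparisons. In it 27 genes (0.2% of those tested) passed and 0 of the 10 receptor genes did. At an unadjusted p under 0.05 by limma, 2 receptor genes differed, both lower in Immo+FC, against 13.1% of all genes, 7.73% lower and 5.34% higher. Htr3a had a log2 difference of −0.31 (standard error 0.09) with an interval from −0.50 to −0.11 (unadjusted p = 0.00405, adjusted p = 0.170 from limma), and its groups did not overlap, as for 2.57% of all genes and for 1.44% with Immo+FC lower. Htr2c had a log2 difference of −0.28 (standard error 0.10) with an interval from −0.49 to −0.07 (unadjusted p = 0.0120, adjusted p = 0.240 from limma). Without Immo+FC libraries 1 and 2 these values were −0.13 and −0.11. Htr2a and Htr1f had 0.24 and 0.20, with intervals from −0.26 to 0.74 and from −0.26 to 0.66. Over the 10 genes 5 were higher and 5 lower, with a median of −0.04 against −0.01 over all genes.

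**Figure D3:**
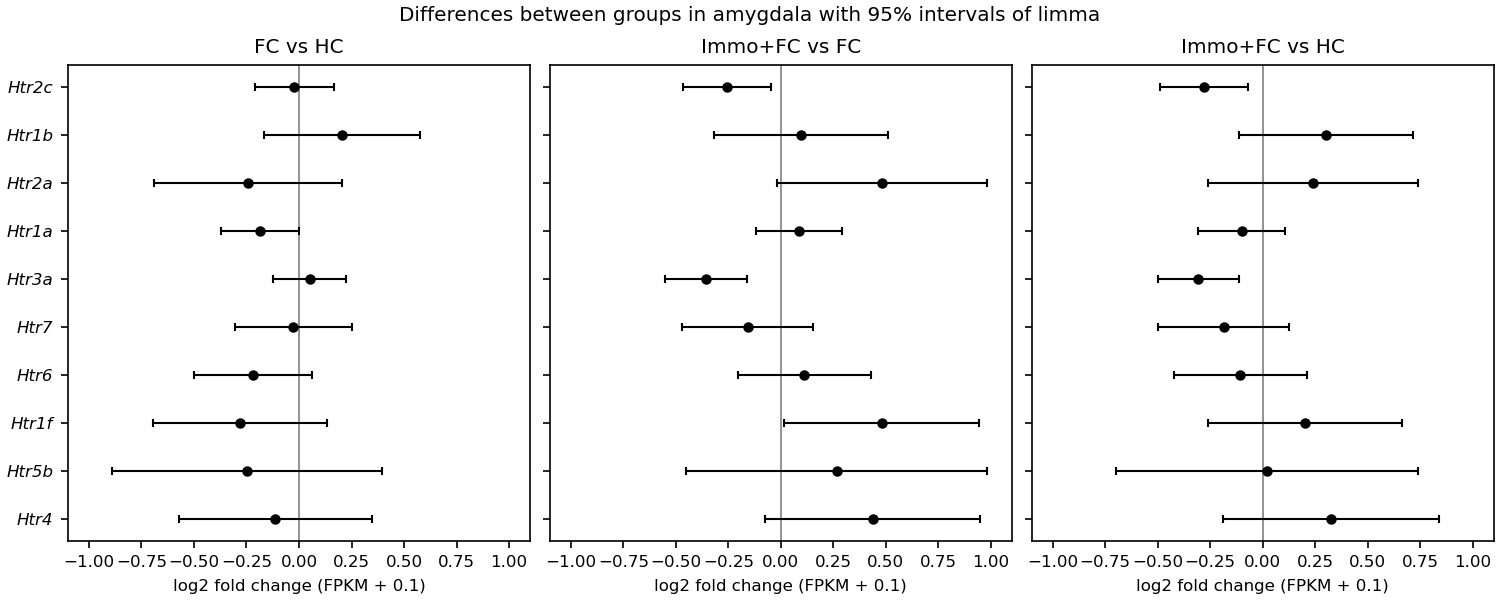
Log2 fold change on the log2(FPKM + 0.1) scale (x axes) of the 10 receptor genes in amygdala for FC vs HC, Immo+FC vs FC and Immo+FC vs HC, with 95% intervals from limma. Htr3a is at −0.36 and −0.31 in the comparisons with Immo+FC and at 0.05 between FC and HC; no gene passed after adjustment over all genes.

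Since the choroid plexus makes Htr2c, its markers were set beside this gene. Of 14 choroid plexus markers 13 were tested and 0 passed over all genes in any comparison. Of all genes 0.0148% (FC vs HC), 0.0222% (Immo+FC vs FC) and 0.2% (Immo+FC vs HC) passed, so this does not show equal levels. The summed level of the 14 markers was 32.0 to 1230 FPKM in HC (median 203) and 33.2 to 1070 FPKM in FC (median 285). In Immo+FC it was 158 to 1079 FPKM, with a higher median of 818 FPKM. Htr2c was at 25.3, 27.1 and 25.1 FPKM in HC libraries 4 to 6, where Ttr was under 3 FPKM, and at 32.5, 32.5 and 24.6 FPKM in HC libraries 1 to 3. In Immo+FC library 1, with Ttr at 941 FPKM, Htr2c had its lowest value of the 16 libraries, 19.9 FPKM. The 3 highest values of Htr2c, in HC libraries 1 and 2 and FC library 5 (31.4 FPKM), were in libraries with Ttr at 561 to 1027 FPKM. With the choroid plexus and striatal marker scores as covariates, the log2 difference of Htr2c was −0.25 between Immo+FC and FC and −0.28 between Immo+FC and HC. The part of choroid plexus RNA in the Htr2c values was not tested.

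Htr2a and Htr1f were read beside the long-transcript score. Htr1f was at 0.894 and 0.788 FPKM in HC libraries 1 and 2, which have the low score of the FC libraries, and at 0.953, 1.65, 2.18 and 1.41 FPKM in HC libraries 3 to 6. Htr2a was at 3.80 and 3.12 FPKM in HC libraries 1 and 2 and at 4.81, 5.22, 5.81 and 6.16 FPKM in HC libraries 3 to 6. The order was not without exceptions, since HC library 3 had a score of 0.21 with a low Htr1f, and FC library 6 had a score of −0.11 with Htr2a at 6.10 FPKM. The longest annotated transcripts of these genes have 2579 and 5606 bases, so neither is among the long transcripts of the score. All FC libraries had a score below 0, as had HC libraries 1 and 2 but not HC libraries 3 to 6, so score and group are partly confounded. With the score as a covariate the FC vs HC differences turned from −0.28 to 0.13 for Htr1f and from −0.24 to 0.12 for Htr2a. Without HC libraries 1 and 2 they were −0.53 and −0.46, with unadjusted p-values of 0.00969 and 0.0480 and adjusted p-values of 0.160 and 0.340 from limma. The striatal marker score was −0.83, −0.56 and −0.58 in HC libraries 1 to 3 and 0.03, 0.72 and 0.82 in HC libraries 4 to 6. It was −0.70 in FC library 5, which had the lowest Htr2a, and 0.53 in FC library 6. In Immo+FC library 4 it was −0.44, with Htr2a at 5.27 FPKM. The parts of what the long-transcript score measures and of tissue make-up in these differences were not tested.

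**Figure D4:**
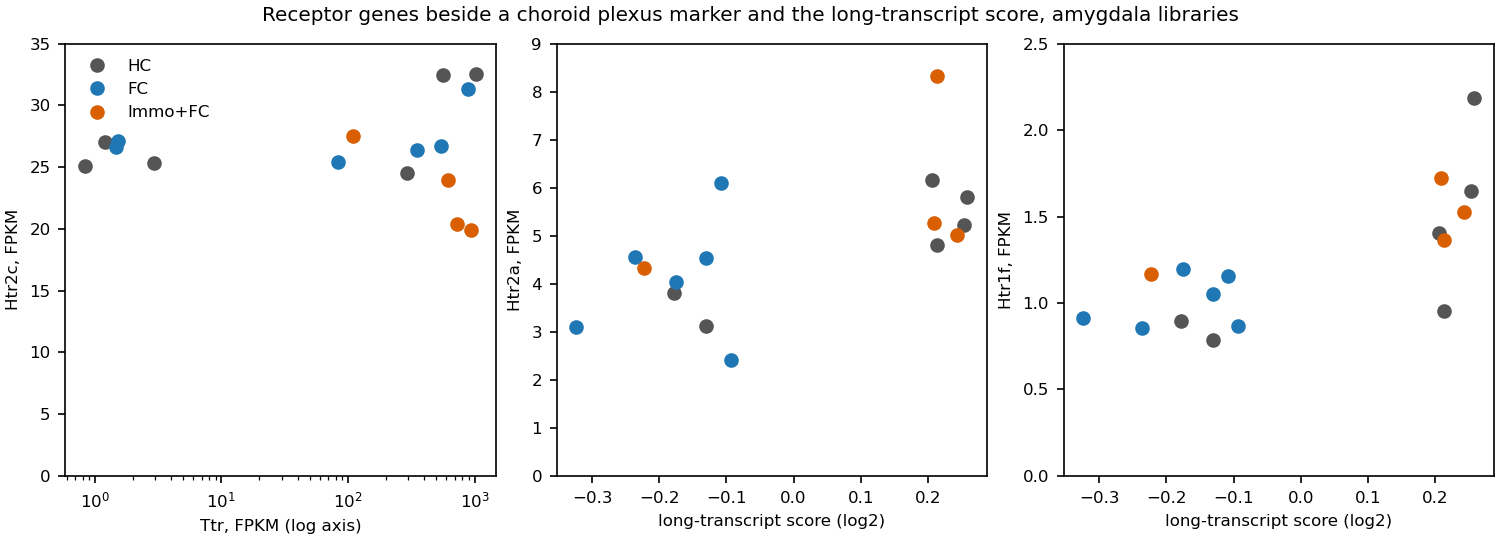
Left, Htr2c (FPKM, y axis) against the choroid plexus transcript Ttr (FPKM, log x axis) in 16 amygdala libraries; middle and right, Htr2a and Htr1f (FPKM) against the long-transcript score (log2 units). Htr2c is at 25.1 to 27.1 FPKM in the 5 libraries with Ttr under 3 FPKM, and the 3 highest Htr1f values lie at scores above 0.2.

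Receptor genes that varied together were sought by Pearson correlation of log2(FPKM + 0.1) over the 16 libraries, as a description without a test. Libraries share groups, depth and tissue make-up, so the values are not independent of these. Among 45 pairs of members the highest was Htr2c with Htr3a (r = 0.88, Spearman's rho = 0.65), which was 0.70 without Immo+FC libraries 1 and 2 and 0.82 for deviations from group means. The pair Htr1f and Htr2a followed (r = 0.66, rho = 0.70), with 0.56 for deviations from group means. The pairs of Htr7 with Htr3a and Htr2c were at 0.62 each, but at 0.12 and 0.20 without Immo+FC libraries 1 and 2, so they rest on those libraries. The lowest were Htr2a with Htr2c (r = −0.60, rho = −0.48) and Htr2a with Htr3a (r = −0.58, rho = −0.58). Without FC library 5 and Immo+FC library 2, which hold the extreme values of Htr2a, these were −0.33 and −0.22, so the negative values rest in part on those libraries.

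The genes most like each receptor gene over the 16 libraries, with r given for the first, were Calb1 (0.90), Zfp423 and Tmem241 for Htr3a and D3Bwg0562e (0.94), Alcam and Hif1a for Htr2c. For Htr2a they were Osbpl3 (0.92), 1700020A23Rik and Sdk1, and for Htr1f Cacnb4 (0.91), Stxbp5l and Camk4. For Htr1b they were Ric8b (0.89), 1700021K19Rik and Pdyn, the gene of prodynorphin. For Htr1a they were Zbtb22 (0.84), Hadh and Acox3, and those given for Htr7 are Aldh3a2 (0.89) and Arl4c. For Htr6 they were Amn (0.87), Zfp787 and Pura, for Htr4 Zswim3 (0.82), Sema3e and Gpr149, and for Htr5b Npr3 (0.91), Dcn and Crym. Calb1 encodes a calcium-binding protein of many interneurons.

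The 4 receptor genes outside the set covered a wide range of levels. Htr5a, the paralogue of Htr5b, was at 2.80 to 3.70 FPKM over the 16 amygdala libraries and Htr1d, a further inhibitory receptor, at 0.737 to 2.05 FPKM. Htr2b was at 0 to 0.0609 FPKM and Htr3b, the partner subunit of Htr3a in the channel, at 0 to 0.0334 FPKM, and neither was tested. Htr5a and Htr1d had an unadjusted p above 0.05 in all 3 comparisons.

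Among 16 genes of serotonin synthesis, transport and breakdown, 10 were tested and 0 passed over all genes in any comparison. Of all genes 0.0148% (FC vs HC), 0.0222% (Immo+FC vs FC) and 0.2% (Immo+FC vs HC) passed, so this does not show equal levels. In each comparison 1 of the 10 had an unadjusted p under 0.05 by limma. Over all genes the shares at this p were 13.1%, 10.4% and 13.1%, so these counts are near the background. At an unadjusted p under 0.05 by limma, Slc18a2, the vesicular monoamine transporter, was higher in FC than in HC, with a mean FPKM of 1.25 ± 0.195 (SD, n = 6) against 0.906 ± 0.140 (SD, n = 6), with a log2 difference of 0.42 (standard error 0.12, adjusted p = 0.128). Maoa, which breaks serotonin down, had a mean FPKM of 6.18 ± 0.538 (SD, n = 4) after both procedures, against 7.19 ± 0.355 (SD, n = 6) after conditioning alone and 7.34 ± 0.725 (SD, n = 6) in the home cage. Its log2 difference in Immo+FC was −0.22 from FC and −0.24 from HC, with adjusted p-values of 0.289 and 0.167 from limma. The most abundant genes of the list were Qdpr at 67.7, Spr at 21.1, Aldh2 at 20.7 and Pts at 17.0 FPKM, 3 of which make or recycle the biopterin cofactor.

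Of 24 G protein and effector genes through which these receptors signal, all were tested and 0 passed over all genes. At an unadjusted p under 0.05 by limma, 2 were higher and 2 lower in FC than in HC, 1 was higher and 3 lower in Immo+FC than in FC, and 0 were higher and 3 lower in Immo+FC than in HC. Over all genes the shares at this p were 13.1%, 10.4% and 13.1%, so these counts of 24 are near the background. Gnas, the Gs subunit and at 728 FPKM the most abundant of them, had log2 differences of 0.11 in FC from HC and −0.14 in Immo+FC from FC. Itpr1, the calcium release channel downstream of Gq, had −0.50 and 0.75 in the same comparisons. Gnai1 had −0.14 and −0.15 in Immo+FC from FC and from HC. Of the adenylyl cyclases, Adcy1 had −0.26 and Adcy3 0.12 in FC from HC, and Adcy8 −0.35 in Immo+FC from HC. The kinase subunit Prkaca had −0.10 in Immo+FC from FC and the potassium channel Kcnj3 −0.20 in Immo+FC from HC. Gnao1 and Prkacb, at 180 and 153 FPKM, had an unadjusted p above 0.05 in all comparisons.

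Of 14 genes for partners of the receptors, all were tested and 0 passed over all genes. At an unadjusted p under 0.05 by limma, 1 was higher in FC than in HC. In Immo+FC 2 were lower than in FC and 1 was lower than in HC. Over all genes the shares at this p were 13.1%, 10.4% and 13.1%, so these counts of 14 are near the background. Rgs2, a regulator of Gq signalling, had the smallest p of them, with a log2 difference of 0.22 in FC from HC (standard error 0.05, unadjusted p = 8.64e-04, adjusted p = 0.110 from limma). Dlg4 had −0.08 and Grm2, whose receptor can associate with that of Htr2a, −0.32 in Immo+FC from FC. Their adjusted p-values were 0.471 and 0.415 from limma. The paper names Grm2 among the genes that differed between these groups, so its values here are not independent evidence. Ric3, a chaperone that helps to assemble the Htr3a channel, had −0.13 in Immo+FC from HC. Rgs4, Cdk5 and Arrb1, at 82.2, 40.5 and 38.3 FPKM, had an unadjusted p above 0.05 in all comparisons.

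Markers of neighbouring regions were also read. Of 11 tested striatal markers, 5 hippocampal markers, 7 markers of claustrum and deep cortex and 4 of thalamus and habenula, 0 passed over all genes in any comparison. Only 0.0148% (FC vs HC), 0.0222% (Immo+FC vs FC) and 0.2% (Immo+FC vs HC) of all genes passed, so this does not show equal tissue make-up. At an unadjusted p under 0.05 by limma, Rora, listed for thalamus and habenula, had log2 differences of −1.54 in FC from HC and 1.88 in Immo+FC from FC. Trpc6, listed for hippocampus, had −0.20 and 0.21 in the same comparisons, and Tac2 0.61 in FC from HC. Over all genes the shares at this p were 13.1% and 10.4%. The list of Rora did not move together. Tac2 had −0.34 in Immo+FC from FC. In the order given for Rora, Tcf7l2 had 0.24 and −0.28 and Prkch 0.02 and 0.28. The striatal markers varied most, with a summed level of 105 to 323 FPKM in HC, 110 to 330 FPKM in FC and 145 to 305 FPKM in Immo+FC. Their median log2 difference was −0.06 in FC from HC, 0.35 in Immo+FC from FC and 0.36 in Immo+FC from HC.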

How the data were processed

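Poly-A RNA from amygdala punches and globin-depleted trunk blood was sequenced from TruSeq libraries. Reads were placed on mm10 by the authors using STAR 2.3, and they deposited FPKM per gene from Cufflinks and Cuffdiff 2.1.1, each tissue on its own. The deposited library table gives the total count of sequences and the percent uniquely mapped. Read counts per gene were not used here, so no counting interval was computed.

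Amygdala FPKM were tested with limma 3.58.1 in R 4.3.3 on log2(FPKM + 0.1), with a variance trend and 3 groups in 1 fit, for the 13508 genes whose mean reached 0.5 FPKM. P-values were adjusted by Benjamini-Hochberg over all of them, with a threshold of 0.05. The test was also run on simulated data with independent noise per gene. Those data lack the differences that many genes share between libraries, so the run does not cover them. A simulated log2 change of 0.3 was recovered for 59.7% (FC vs HC), 46.3% (Immo+FC vs FC) and 38.8% (Immo+FC vs HC) of changed genes. No test was made in blood. Positions are from GENCODE annotation of GRCm38.

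All 10 receptor genes are named. Pathway genes are named where their unadjusted p is under 0.05 or they are among the 4 most abundant of their list, and for each receptor gene the 3 tested genes with the highest correlation, of which 1 for Htr7 is not reported here. Members, lists and alternatives were chosen with earlier results of these data known. The alternatives were another pseudocount, no minimum, median-ratio scaling, 2 groups per fit, a replicate block, marker and transcript length scores as covariates, array weights, and libraries left out. Replicates are pools of 2 mice, and 272 table entries that join several symbols hold no receptor gene.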

Additional observations from a re-analysis of the deposited data

Results flagged for a closer look

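In 2 of 30 groups of values, the 10 receptor genes in the 3 amygdala groups, a single library stood apart from the rest of its group by Dixon's criterion, where chance gives 1.5. Htr1b was at 5.58 FPKM in HC amygdala library 5 and at 3.89 to 4.45 FPKM in the other HC libraries, a gap of 0.670 of the group's range. Htr2c was at 31.4 FPKM in FC amygdala library 5 and at 25.4 to 27.1 FPKM in the other FC libraries, a gap of 0.712 of the range. That FC library also had the highest Htr3a, 4.81 FPKM, the lowest Htr2a, 2.41 FPKM, and the highest Ttr of its group, 881 FPKM.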

How the results depend on the processing

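In all 26 alternatives per comparison 0 of 10 receptor genes passed by limma, and the lowest adjusted p of any of them was 0.0613, for Htr3a between Immo+FC and FC with array weights. Of 780 recomputed log2 differences 30 changed sign, none past the threshold, and the cause was not tested. With the long-transcript score Htr1b was at −0.046 for Immo+FC vs FC, and Htr1f at 0.13, Htr2a at 0.12 and Htr7 at 0.012 for FC vs HC. With choroid plexus and striatal scores Htr1b was at −0.069 for Immo+FC vs FC and Htr5b at −0.19 for Immo+FC vs HC. With array weights Htr1b was at −0.018 and Htr6 at −0.004 for Immo+FC vs FC and Htr2c at 0.016 for FC vs HC. Without HC libraries 1 and 2, Htr2c was at 0.094, Htr5b at 0.085 and Htr7 at 0.015 for FC vs HC, and Htr1f at −0.051 for Immo+FC vs HC. Without Immo+FC libraries 1 and 2, Htr7 was at 0.16 against FC and 0.14 against HC. With a pseudocount of 1 Htr5b was at −0.0066 for Immo+FC vs HC. With single libraries left out the ranges were −0.0605 to 0.21 (Htr1b) and −0.015 to 0.19 (Htr6) for Immo+FC vs FC, −0.22 to 0.22 (Htr5b) for Immo+FC vs HC, and −0.0635 to 0.024 (Htr2c), −0.24 to 0.0244 (Htr4) and −0.074 to 0.028 (Htr7) for FC vs HC.

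Deviations from group means correlated at r from −0.26 to 0.31 between libraries with the same replicate number (14 pairs, median −0.03). Between libraries with different numbers they correlated at −0.27 to 0.26 (70 pairs, median 0.01). The labels do not state what the numbers stand for, and this comparison cannot exclude that libraries with the same number were handled together. With the replicate block 0 receptor genes passed, Htr3a was at −0.35 and −0.30 against FC and HC, and Htr5b was at −0.12 for Immo+FC vs HC.

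Counts over all genes depended on the setting. For FC vs HC the 2 genes became 160 with the replicate block, 500 with array weights, 357 without HC libraries 1 and 2, 16 with marker scores, 1 with the long-transcript score or no minimum, and 1 to 143 with a library left out. For Immo+FC vs FC the 3 became 67 with 2 groups in the fit, 62 with the block, 171 with array weights, 121 without HC libraries 1 and 2, 1 with marker scores or without Immo+FC libraries 1 and 2, and 1 to 144 with a library left out. For Immo+FC vs HC the 27 became 0 with 2 groups, the block or without Immo+FC libraries 1 and 2, 6 with no minimum, 16 with array weights, 1 with marker scores, 2 without HC libraries 1 and 2, and 0 to 148 with a library left out. Depth per gene is unknown from FPKM.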

Other observations

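Htr5b varied most among the receptor genes, with the widest range in HC. It was at 1.95, 1.15 and 1.26 FPKM in HC libraries 1 to 3 and at 0.691, 0.556 and 0.492 FPKM in HC libraries 4 to 6. The striatal marker score was −0.83, −0.56 and −0.58 in the first of these sets and 0.03, 0.72 and 0.82 in the second, and Ttr was high in the first and near 0 in the second. In Immo+FC library 3, Htr5b was at 1.60 FPKM with a striatal score of 0.67. The part of tissue make-up, and of reads from the overlapping gene Gm8217, in these values was not tested.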
